A study of Mus musculus with 9 samples.

Results

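The 10 genes described here encode the inflammatory caspases Casp4, Casp1 and Casp12, the pore-forming protein Gsdmd, the sensors Nlrp3, Nlrp6 and Aim2, the adaptor Pycard and the cytokines Il1b and Il18. They were chosen by name, 10 of the 26139 genes of a table of FPKM values (read fragments scaled to gene length and to library depth) from mouse kidney, with results of the same libraries already known. Casp4 was then known to differ between groups, so the levels and differences of the members below are a description; whether a member passed the threshold over all genes is given as a description too, without its p-value. The study compared 3 groups of 3 kidney libraries. The WT group was wild-type C57/BL6 mice given saline by gavage. The IgAN group carried Itgam-IRES-hCD89, which places human CD89, a receptor for IgA, behind Itgam (CD11b), and was given saline as well. GQYS mice had this allele too and were gavaged daily for 5 months with Gui-qi-yi-shen granules, an herbal preparation. The allele ties the human receptor to cells that use the Itgam promoter, which are mainly myeloid. The sources used here give neither ages nor the number of animals behind a library, and p-values below therefore measure only the spread between libraries, which may be technical.

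In the canonical inflammasome, a sensor such as Nlrp3 or Aim2 recruits the adaptor Pycard (ASC), which activates caspase-1, and caspase-1 cleaves the precursors of interleukin-1 beta and interleukin-18. Mouse Casp4, often called caspase-11, is the caspase of the non-canonical pathway and binds lipopolysaccharide in the cytosol directly. Both caspases cleave gasdermin D, whose N-terminal part forms pores in the plasma membrane and causes the lytic death called pyroptosis. Transcription of Casp4, Nlrp3 and Il1b is known to be induced by inflammatory signals, whereas much of the regulation of Casp1 and Gsdmd is by proteolysis, which RNA levels do not show.

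Depth was 30564947 to 38161564 reads assigned to genes per library, recovered from the steps in which low FPKM values move. Kidney markers were abundant in all libraries, with summed FPKM of 40572 to 70313 for 8 proximal tubule genes. Itgam, the locus of the knock-in, averaged 0.495 ± 0.197 FPKM in the WT, 0.289 ± 0.132 in the IgAN and 0.0848 ± 0.0574 in the GQYS libraries (SD, n = 3). Exact 2-sided permutation tests gave p = 0.1, the smallest possible with 3 against 3, for each comparison with GQYS and p = 0.3 between IgAN and WT. WT replicate 1 stood apart by its mitochondrial share of reads, 18.6% against 7.81% to 13.3% in the other libraries, and WT replicate 3 had the highest sum of 7 urothelial markers, 20.7 FPKM against 1.80 to 12.8.

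Casp4, Il1b and Nlrp3 were higher in all 3 IgAN libraries than in any WT or GQYS library, and no other member was. That is 3 of 10 members, where 3.15% of the 23797 genes with any value lay that way. Group means in IgAN were 4.95 times those in WT for Casp4, 2.70 times for Il1b and 2.04 times for Nlrp3, and 3.67, 2.76 and 2.55 times those in GQYS. A linear model (limma) of log2(FPKM + 1) was fitted to genes that reached 1 FPKM in 3 or more libraries, and 5 members did so: Casp4, Gsdmd, Pycard, Il1b and Nlrp6. Il1b reached this filter through its 3 IgAN libraries alone, and Casp4 through its 3 IgAN and 2 of its GQYS libraries, so both entered by the group in which they are high. Casp4 was also past the threshold in both comparisons with IgAN when no filter was used. In IgAN against WT, Casp4 was the 1 tested member past an adjusted p of 0.05, as were 0.353% of the 11617 genes tested, or 0.301% in the same direction. In GQYS against IgAN, Casp4 was again the 1 member past it, in the other direction, against 0.198% of tested genes, or 0.164% in that direction. No member passed in GQYS against WT, and neither did any other gene (0.0%), in limma or with voom on recovered reads, while 515 of the 11617 genes had an unadjusted p under 0.05 and 53 passed with library quality weights. Counted by ranges that do not overlap, 3 members were higher in IgAN than in WT (6.78% of genes with a value) and 1, Il18, was lower (4.88%). In GQYS against IgAN 4 members were lower, these 3 and Gsdmd (6.45%), and 0 were higher (8.62%). In GQYS against WT only Casp4 was higher (5.83%) and only Il18 lower (2.6%). The comparisons share libraries, so their values are given side by side and not as separate evidence.

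**Figure D1:**
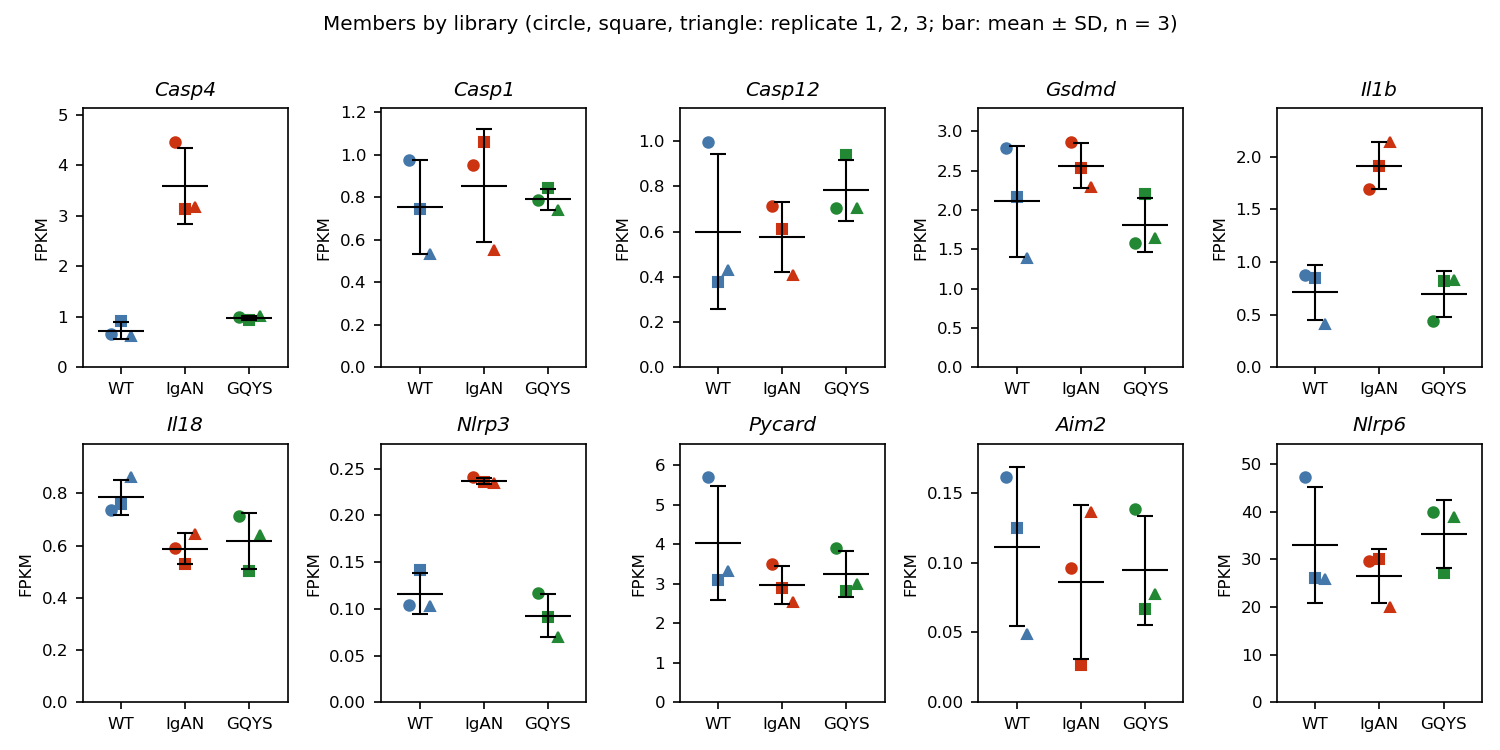
FPKM of each member (vertical axis, starting at 0) in the 9 libraries by group; circles, squares and triangles are replicates 1, 2 and 3 and bars are mean ± SD of 3 libraries. The IgAN points of Casp4, Il1b and Nlrp3 lie above all WT and GQYS points, whereas those of the other 7 members overlap at least 1 group.

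The sequences before the start sites of these 3 members are shown because all 3 were highest in the IgAN libraries, though only Casp4 passed the test, with that of Casp1, the neighbour of Casp4, beside them. They are the 250 bases before the start from RefSeq (build GRCm38.p6, while the submitters' processing notes name GRCm39), written 5′ to 3′ on the strand of the gene. RefSeq entries were found for 9 of the 10 members, and Gsdmd was not among them. The intervals are chr9:5308599-5308848, plus strand, for Casp4, chr11:59542436-59542685, plus strand, for Nlrp3, chr2:129371140-129371389, minus strand, for Il1b and chr9:5298267-5298516, plus strand, for Casp1. Capitals mark matches on either strand to GGNNTTTCC, a short form of the NF-kB site.
Casp4: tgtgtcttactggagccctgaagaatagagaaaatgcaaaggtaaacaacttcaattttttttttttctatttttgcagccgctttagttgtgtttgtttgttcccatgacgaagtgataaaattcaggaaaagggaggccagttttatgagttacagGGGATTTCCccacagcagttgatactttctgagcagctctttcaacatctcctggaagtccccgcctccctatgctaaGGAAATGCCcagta
Nlrp3: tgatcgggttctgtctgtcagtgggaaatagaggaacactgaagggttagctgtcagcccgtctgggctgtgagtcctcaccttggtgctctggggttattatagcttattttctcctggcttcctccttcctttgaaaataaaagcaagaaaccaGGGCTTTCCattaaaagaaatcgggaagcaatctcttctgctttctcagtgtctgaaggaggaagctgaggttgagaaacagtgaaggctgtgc
Il1b: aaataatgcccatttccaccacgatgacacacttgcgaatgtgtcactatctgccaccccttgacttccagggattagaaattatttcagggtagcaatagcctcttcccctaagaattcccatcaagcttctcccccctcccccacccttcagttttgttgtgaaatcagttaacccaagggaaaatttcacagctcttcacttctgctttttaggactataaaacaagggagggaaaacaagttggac
Casp1: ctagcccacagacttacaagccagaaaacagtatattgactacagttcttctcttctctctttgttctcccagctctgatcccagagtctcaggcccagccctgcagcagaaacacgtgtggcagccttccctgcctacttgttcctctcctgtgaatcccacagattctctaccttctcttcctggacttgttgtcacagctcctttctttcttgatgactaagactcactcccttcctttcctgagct

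The NF-kB letters occurred in the windows of Casp4, at positions -92 to -84 and -14 to -6 from the start, and of Nlrp3, at -94 to -86. The window of a second annotated start of Casp4 overlaps the first and held the same matches, at -103 to -95 and -25 to -17. A second annotated start of Nlrp3 had another match, at -122 to -114. No match stood in the window of Il1b, Casp1 or the other members with an entry, and 4.93% of 32851 promoter windows of this length held one. The letters GAAANNGAA, for interferon response elements, occurred in no member's window (7.13% of all windows). TTCNNNGAA, for STAT sites, occurred at 2 places before Casp12 (7.02%). TGANTCA, for AP-1, occurred before Nlrp6 (6.75%), and TTGCNNAA, for C/EBP, before Casp12 and Pycard (9.56%). The letters GGNNTTTCC, GAAANNGAA and TTGCNNAA were searched on both strands, and TTCNNNGAA and TGANTCA read the same on both. Such short letters can overlap other motifs, and a match describes letters, not binding.

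Casp4 had 0.649, 0.914 and 0.608 FPKM in WT replicates 1 to 3. In IgAN it had 4.46, 3.13 and 3.17 FPKM, and in GQYS 1.001, 0.926 and 1.01 FPKM. The lowest IgAN library was thus far above the highest of the other groups, and the GQYS libraries lay just above the highest WT library. The means were 0.724 ± 0.166 FPKM for WT, 3.59 ± 0.754 for IgAN and 0.978 ± 0.0451 for GQYS (SD, n = 3): Casp4 rose in IgAN against WT and fell in GQYS against IgAN. The fitted difference on the log2(FPKM + 1) scale, which understates the change of low genes, was 1.40 (SE 0.13) for IgAN against WT and -1.20 (SE 0.13) for GQYS against IgAN. For GQYS against WT it was 0.20 (SE 0.13). Reads of Casp4 numbered 28 to 52 per library in WT, 158 to 203 in IgAN and 47 to 52 in GQYS, so the gene was thinly covered outside IgAN. The call in IgAN against WT held without each library in turn, and that in GQYS against IgAN ended without GQYS replicate 3, with a difference of -1.21. Without WT and IgAN replicate 1 together, Casp4 passed in both comparisons, at 1.24 and -1.07.

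Casp1, which encodes the caspase that matures interleukin-1 beta, lies next to Casp4 on chromosome 9 in RefSeq, and Casp12 lies on the other side of Casp4. Casp1 had 0.977, 0.744 and 0.534 FPKM in WT, 0.951, 1.06 and 0.553 in IgAN, and 0.788, 0.842 and 0.738 in GQYS. The 3 groups overlapped throughout. In the fit without a filter its difference was 0.08 (SE 0.13) for IgAN against WT and -0.04 (SE 0.13) for GQYS against IgAN. Casp12, a caspase associated with the endoplasmic reticulum, had 0.995, 0.376 and 0.429 FPKM in WT, 0.711, 0.612 and 0.408 in IgAN, and 0.703, 0.938 and 0.705 in GQYS. Its groups overlapped too, and WT replicate 1 was its highest library. Both neighbours stayed below the filter on low values.

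Ratios taken within a library do not depend on its depth or scaling. Casp4 over Casp1 was 0.664 to 1.23 in WT, 2.96 to 5.73 in IgAN and 1.10 to 1.36 in GQYS. Casp4 over Casp12 was 0.652 to 2.43, 5.12 to 7.78 and 0.987 to 1.43 in the same order. In both ratios every IgAN library exceeded every other library, and WT and GQYS overlapped. In the order of the members by mean FPKM, Casp4 stood at place 6 in WT, 2 in IgAN and 4 in GQYS. Its WT libraries overlapped those of Casp1 and Il1b, its neighbours in that order, and its IgAN libraries overlapped those of Pycard, the next member down. In GQYS it was apart from both neighbours in the order, Gsdmd above and Casp1 below. It still overlapped Casp12, the member after Casp1, which reached 0.938 FPKM there, while Casp4 went down to 0.926.

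**Figure D2:**
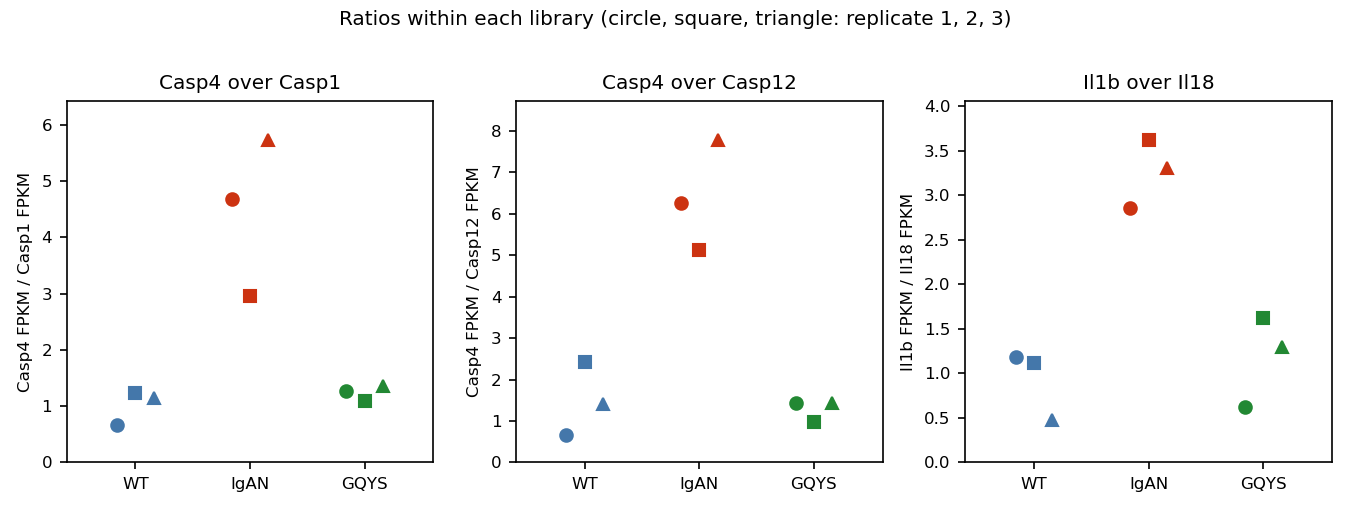
Ratio of 2 members' FPKM within each library (vertical axes, no unit, starting at 0) for Casp4 over Casp1, Casp4 over Casp12 and Il1b over Il18, with circles, squares and triangles for replicates 1, 2 and 3. All 3 IgAN libraries lie above the other 6 in each panel, for example at 2.96 to 5.73 for Casp4 over Casp1.

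Gsdmd, the substrate of both caspases and the pore-forming protein of pyroptosis, had 2.79, 2.16 and 1.38 FPKM in WT, 2.86, 2.53 and 2.30 in IgAN, and 1.58, 2.20 and 1.64 in GQYS. Every GQYS library was below every IgAN library, and WT spanned both. Its difference was 0.22 (SE 0.17) for IgAN against WT and -0.35 (SE 0.17) for GQYS against IgAN, and neither passed the threshold. Casp4 over Gsdmd within a library was 0.233 to 0.440 in WT, 1.24 to 1.56 in IgAN and 0.421 to 0.635 in GQYS, so Casp4 transcripts per length exceeded those of Gsdmd in the IgAN libraries and in no other.

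Il1b, the precursor of interleukin-1 beta, had 0.873, 0.846 and 0.411 FPKM in WT, 1.70, 1.91 and 2.14 in IgAN, and 0.442, 0.815 and 0.828 in GQYS. IgAN lay above both other groups, and WT and GQYS covered nearly the same range. The fitted difference was 0.78 (SE 0.15) for IgAN against WT, -0.79 (SE 0.15) for GQYS against IgAN and -0.01 (SE 0.15) for GQYS against WT. None of these passed over all genes tested, with any library left out or with none. An antisense gene over the same span, Il1bos, had at most 0.143 FPKM in any library.

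Il18, the precursor of interleukin-18, which kidney epithelium also makes, ran the other way. It had 0.734, 0.757 and 0.861 FPKM in WT, 0.593, 0.528 and 0.646 in IgAN, and 0.713, 0.501 and 0.640 in GQYS. Both knock-in groups lay below all WT libraries. Without a filter its difference was -0.17 (SE 0.07) for IgAN against WT, 0.02 (SE 0.07) for GQYS against IgAN and -0.14 (SE 0.07) for GQYS against WT. The span of Il18 overlaps that of Bco2, a carotenoid-cleaving enzyme gene, in RefSeq. Whether their exons overlap was not examined. Without a stated strand setting, reads in any shared stretch cannot be told apart. Bco2 was at 7.40 to 9.41 FPKM in WT, 4.56 to 6.36 in IgAN and 6.92 to 8.999 in GQYS, and its part in the values of Il18 was not tested. Within a library Il1b over Il18 was 0.478 to 1.19 in WT, 2.86 to 3.62 in IgAN and 0.620 to 1.63 in GQYS.

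**Figure D3:**
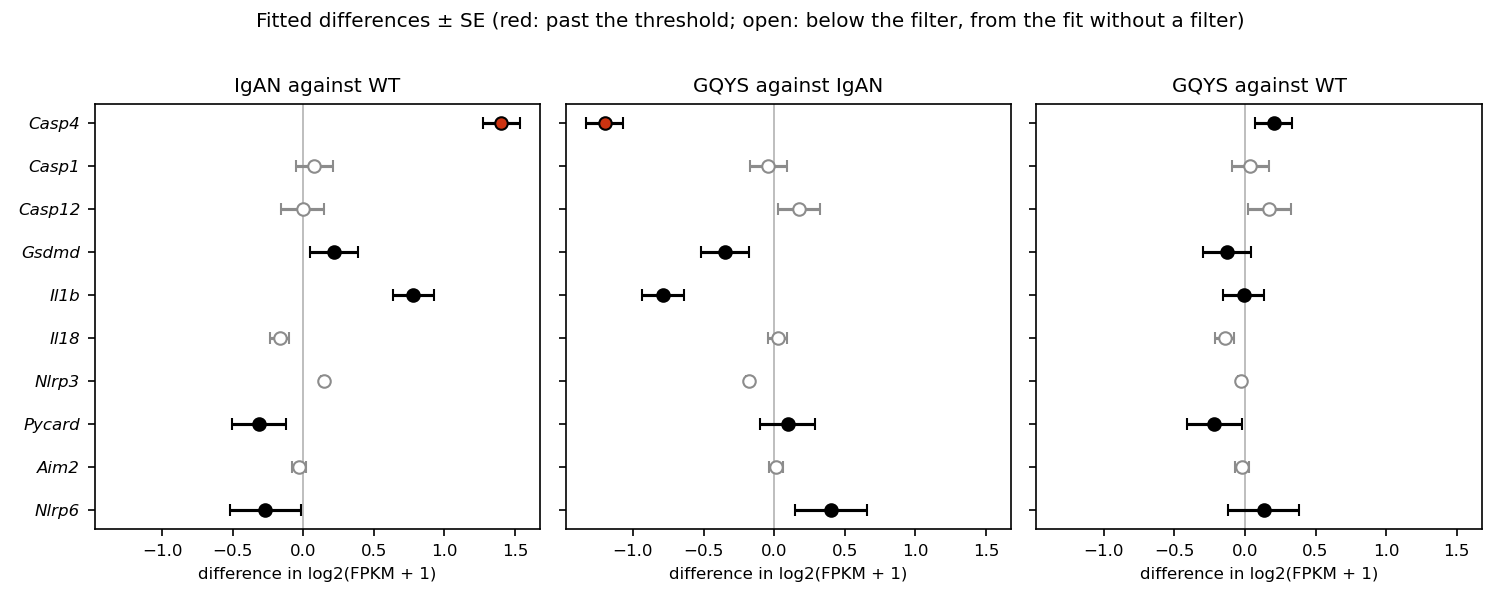
Fitted difference in log2(FPKM + 1) (horizontal axis, ± SE) for each member in the 3 comparisons; red points passed the threshold over all genes, black points were tested and did not, and open points come from the fit without a filter. Casp4 lies at 1.40 and -1.20 in the comparisons of IgAN with WT and of GQYS with IgAN, and Il1b at 0.78 and -0.79.

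Nlrp3, the sensor that responds to potassium efflux and many danger signals, was among the lowest members. It had 0.105, 0.141 and 0.103 FPKM in WT, 0.241, 0.236 and 0.235 in IgAN, and 0.117, 0.0911 and 0.0705 in GQYS. All IgAN libraries were above all others, and the WT and GQYS ranges overlapped. These values rest on 13 to 22 reads per library in WT, 30 to 33 in IgAN and 9 to 16 in GQYS. Summed over 3 libraries the reads were 50 in WT (exact 95% Poisson interval 37.1 to 65.9), 95 in IgAN (76.9 to 116) and 39 in GQYS (27.7 to 53.3), and these intervals cover counting error only. The closeness of the 3 IgAN libraries exceeds what such counts can resolve, since 30 reads alone have an interval of 20.2 to 42.8. Nlrp3 did not enter the fit with the filter, and without it its difference of 0.15 (SE 0.02) did not pass for IgAN against WT, nor did -0.18 (SE 0.02) for GQYS against IgAN.

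Pycard, the ASC adaptor, had 5.68, 3.09 and 3.32 FPKM in WT, 3.49, 2.88 and 2.53 in IgAN, and 3.91, 2.82 and 3.004 in GQYS. WT replicate 1 was its highest library and the groups overlapped. Its difference for IgAN against WT was -0.31 (SE 0.19), and -0.09 without WT replicate 1. Nlrp3 over Pycard, the ratio of sensor to adaptor within a library, was 0.0184 to 0.0457 in WT, 0.0689 to 0.0926 in IgAN and 0.0235 to 0.0323 in GQYS.

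Nlrp6, a sensor best known from intestinal epithelium, was by far the most abundant member. It had 47.2, 26.1 and 25.8 FPKM in WT, 29.6, 30.1 and 20.01 in IgAN, and 40.0, 27.2 and 38.9 in GQYS, which put its mean at place 1868 of 26139 genes. The groups overlapped, and WT replicate 1 was again the highest library. Its difference was -0.27 (SE 0.25) for IgAN against WT, and 0.01 without WT replicate 1, while for GQYS against IgAN it was 0.40 (SE 0.25). In every group the lowest Nlrp6 library was above the highest library of each other member.

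Aim2, the sensor of cytosolic DNA, had 0.161, 0.124 and 0.0490 FPKM in WT, 0.0958, 0.0265 and 0.136 in IgAN, and 0.139, 0.0670 and 0.0774 in GQYS. The libraries of 1 group differed more than the groups did. Pycard, Nlrp6, Casp12 and Aim2 shared WT replicate 1 as their highest library, the library with the largest mitochondrial share, and the part of that share in their values was not tested.

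Beyond the members, 93 genes of the pathway were looked up from lists by function, made with earlier results of these libraries known, and 51 passed the filter. These were 7 of 20 sensors and adaptors, 7 of 18 caspases and pore genes, 14 of 15 genes of lipopolysaccharide delivery and guanylate-binding proteins, 6 of 18 cytokines and receptors, and 17 of 22 brakes and transcription factors. In limma none of the 51 passed the threshold in any of the 3 comparisons, where 0.353%, 0.198% and 0.0% of all tested genes did, and none passed with voom on the recovered reads. An unadjusted p under 0.05 was reached by 11 of the 51 in IgAN against WT, 9 in GQYS against IgAN and 4 in GQYS against WT, that is 21.6%, 17.6% and 7.84%, beside 10.3%, 10.4% and 4.43% of all tested genes. The median difference of the 51 was 0.11, 0.00047 and 0.11 in these comparisons, and that of all tested genes was 0.02, 0.0064 and 0.03.

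Among transcription factors that act on inflammasome genes, Nfkb1, which encodes the NF-kB subunit p105/p50, averaged 6.35 ± 0.667 FPKM for WT, 9.11 ± 1.03 for IgAN and 7.30 ± 0.556 for GQYS (SD, n = 3; limma adjusted p = 0.165 for IgAN against WT). Rela, which encodes p65, had 8.46 ± 0.578, 11.8 ± 2.27 and 9.37 ± 0.371 FPKM in the same order (limma adjusted p = 0.260). Stat3, the transcription factor downstream of IL-6 family receptors, had 13.3 ± 2.61, 21.1 ± 5.06 and 12.5 ± 1.48 FPKM (limma adjusted p = 0.240 for IgAN against WT and 0.205 for GQYS against IgAN). In all 3 of these genes the IgAN libraries lay above all WT and GQYS libraries, though no difference passed.

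Of the sensors, Nlrc4, which responds to bacterial flagellin and secretion systems, was at 0.730 to 2.45 FPKM in WT, 1.90 to 2.26 in IgAN and 0.889 to 1.41 in GQYS (limma adjusted p = 0.395 for GQYS against IgAN). Txnip, a thioredoxin-binding protein reported to act on Nlrp3, was at 83.6 to 125 FPKM in WT, 123 to 162 in IgAN and 127 to 212 in GQYS (limma adjusted p = 0.912 for GQYS against WT). Cd14, the co-receptor that delivers lipopolysaccharide to Tlr4, was at 2.53 to 3.34 FPKM in WT, 4.01 to 6.91 in IgAN and 2.14 to 3.97 in GQYS (limma adjusted p = 0.376 for GQYS against IgAN). Nlrx1, a mitochondrial member of the Nlr family known to restrain inflammatory signalling, was highest in GQYS, at 2.42 to 3.53 FPKM in WT, 2.50 to 3.02 in IgAN and 3.95 to 4.70 in GQYS (limma adjusted p = 0.192 for GQYS against IgAN and 0.875 for GQYS against WT). Ifi204, an Aim2-like receptor in a family of near-identical genes that may share reads, was at 0.856 to 1.39 FPKM in WT, 1.49 to 1.96 in IgAN and 1.52 to 1.67 in GQYS (limma adjusted p = 0.303 for IgAN against WT). Il33, an alarmin of the IL-1 family, was at 1.52 to 2.53 FPKM in WT, 1.99 to 2.90 in IgAN and 2.41 to 2.85 in GQYS (limma adjusted p = 0.999 for GQYS against WT).

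**Figure D4:**
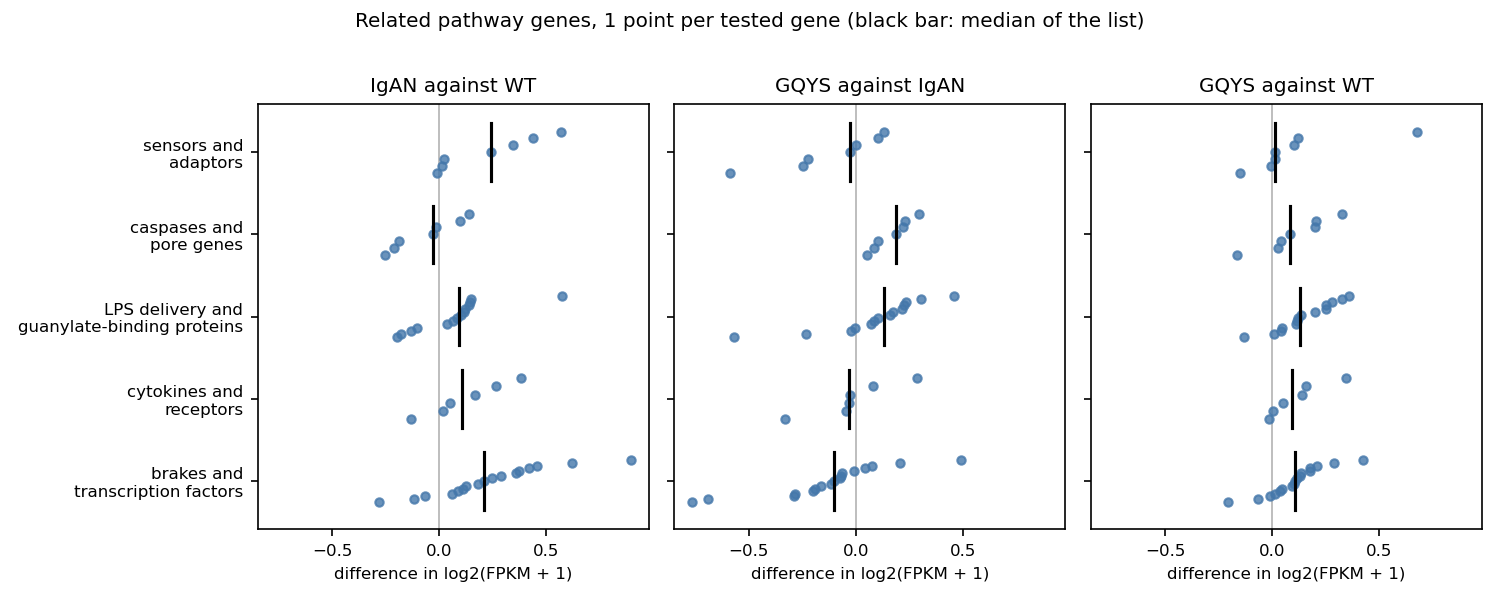
Difference in log2(FPKM + 1) (horizontal axis) of each of the 51 tested related genes, 1 point per gene, in 5 lists by function and 3 comparisons; black bars are list medians. No point passed the threshold, and the medians over all 51 are 0.11, 0.00047 and 0.11 from left to right.

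The tested genes whose log2(FPKM + 1) followed that of Casp4 most closely over the 9 libraries were Socs3 (Pearson r = 0.99), a feedback inhibitor of cytokine signalling, Akap12 (0.98), a scaffold for protein kinase A, Klf6 (0.98), a zinc finger transcription factor, Zbtb16 (0.98), also a zinc finger transcription factor, and Osmr (0.98), the oncostatin M receptor. The points share their libraries, and most of the variation lies between IgAN and the other 6 libraries, so these values describe likeness and no more. Osmr, for instance, averaged 1.89 ± 0.330 FPKM for WT, 5.92 ± 2.20 for IgAN and 2.40 ± 0.103 for GQYS (SD, n = 3). Among the members, Nlrp3 (0.93) and Il1b (0.89) were closest to Casp4 by the same measure, and Il18 was at -0.55.

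The summed neutrophil markers were above both other groups in IgAN, and those of the other leukocyte lists were not. The summed FPKM of 11 neutrophil markers was 1.30 to 3.71 in WT, 27.5 to 35.3 in IgAN and 2.54 to 3.69 in GQYS. Of the 11, 6 lay above all WT libraries in every IgAN library, beside 6.78% of genes with a value. These 6 were S100a8 and S100a9, which made up most of the sum, and Retnlg, Cxcr2, Csf3r and Mmp8. Retnlg averaged 0.0532, 2.50 and 0.0611 FPKM and Csf3r 0.208, 1.01 and 0.238 in WT, IgAN and GQYS. Cxcr2 averaged 0.0591, 0.347 and 0.0296 FPKM and Mmp8 0.0222, 0.203 and 0.0188 in the same order. Camp, Ltf, Ngp, Ly6g and Elane did not lie above all WT libraries in every IgAN library. Elane, of neutrophil granules, was at 0 in all libraries, and Ly6g, the defining surface marker, had at most 0.0319 FPKM. The summed FPKM of 12 macrophage markers was 76.2 to 170 in WT, 135 to 206 in IgAN and 93.3 to 115 in GQYS. None of the 12 lay above all WT libraries in IgAN, beside 6.78% of genes with a value. In GQYS 6 lay below all IgAN libraries, beside 6.45%. Among them was Itgam, the locus of the knock-in, at 5 to 21 reads per GQYS library. Adgre1, which encodes the macrophage antigen F4/80, was at 0.797 to 2.36 FPKM in WT, 1.13 to 2.07 in IgAN and 0.917 to 1.68 in GQYS. Summed FPKM of 8 T and B cell markers was 1.89 to 4.52 in WT, 1.53 to 2.41 in IgAN and 2.50 to 3.11 in GQYS. WT and IgAN thus overlapped. In IgAN 3 of the 8, the B cell genes Cd79a, Cd79b and Ms4a1, lay below all WT libraries, beside 4.88% of genes with a value. T cell genes were mixed: Cd3e averaged 0.360, 0.394 and 0.332 FPKM and Cd8a 0.354, 0.465 and 0.283 in WT, IgAN and GQYS. The means of Cd3d and Cd4 were lower in IgAN than in WT. The 6 genes of tubular injury and early response summed to 145, 14.3 and 21.1 FPKM in WT replicates 1 to 3, 58.6 to 159 in IgAN and 9.94 to 16.8 in GQYS. WT and IgAN sums overlapped through WT replicate 1, and the sums mix injury genes with early-response and heat shock genes. Hspa1a alone had 47.4 to 65.7 FPKM in IgAN and 4.44 to 67.3 in WT. In IgAN 2 of the 6 genes, Havcr1 and Lcn2, lay above all WT libraries, beside 6.78% of genes with a value. Havcr1 was uneven there, at 1.33 to 43.8 FPKM. In GQYS 3 of the 6, Lcn2, Krt20 and Hspa1a, lay below all IgAN libraries, beside 6.45%. Summed FPKM of 6 endothelial markers was highest in GQYS, at 174 to 179, against 136 to 156 in WT and 124 to 149 in IgAN. In GQYS 4 of the 6 lay above all IgAN libraries, beside 8.62% of genes with a value. Above all WT libraries there were 3, beside 5.83%. The part of these cells and responses in the values of Casp4, Il1b and Nlrp3 was not tested, and in whole tissue more cells of a type cannot be told apart from more RNA per cell.

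**Figure D5:**
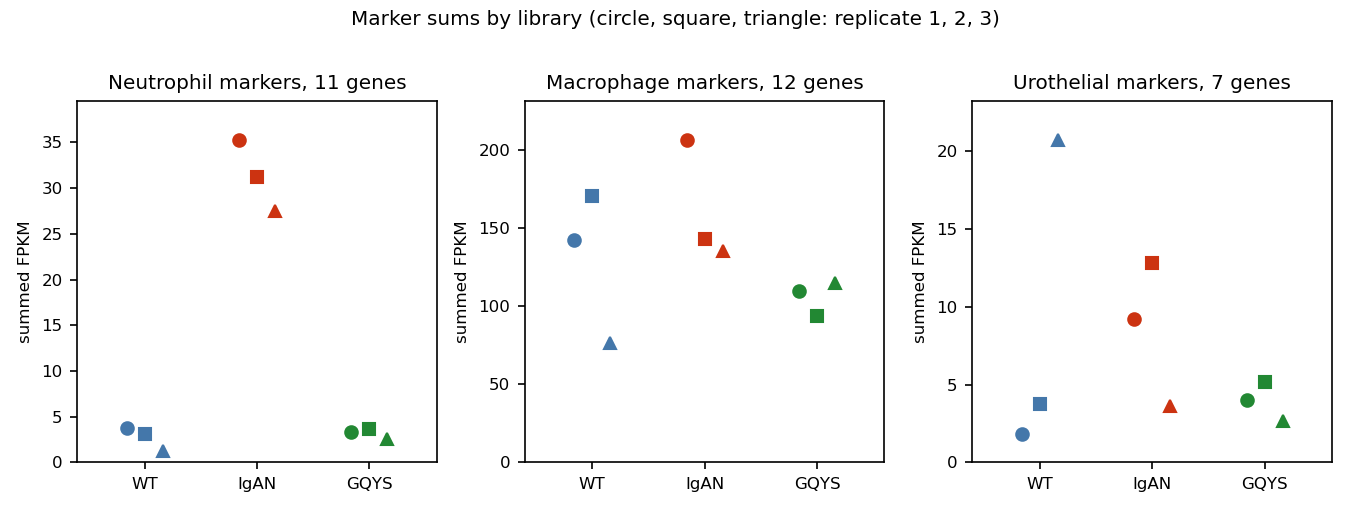
Summed FPKM (vertical axes, starting at 0) of neutrophil, macrophage and urothelial marker lists in each library by group; circles, squares and triangles are replicates 1, 2 and 3. The neutrophil sum is 27.5 to 35.3 in IgAN against at most 3.71 elsewhere, the macrophage sums overlap between WT and IgAN, and WT replicate 3 has the highest urothelial sum, 20.7.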

How the data were processed

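Per the labels' protocols, kidney RNA came from a TRIzol extraction and libraries from a VAHTS V6 kit. The authors deposited FPKM values, 1 column per library, matched to samples by the library names in the labels. GRCm39, R 3.2.0, DESeq2, HTSeq, HISAT2 and fastp are listed, with no roles, in the submitters' processing notes; for annotation and strand setting the entry is: not given in the sources used here. Whole reads were recovered from the FPKM steps within a tolerance of 0.03 reads; the smallest matching multiple was taken, so a count is a lower bound for genes seen in few libraries.

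The fit was limma 3.58.1 in R 4.3.3 on log2(FPKM + 1) over all 9 libraries, with a mean-variance trend and Benjamini-Hochberg adjustment over 11617 genes (those reaching 1 FPKM in 3 or more libraries), at a threshold of 0.05. It was tested on simulated data. Members below the filter have differences from a fit on 23797 genes without a filter. A total of 19 alternative fits were run. Members and gene lists were chosen with earlier results of these data known. The text names every member, Itgam, per comparison the 4 related genes with the smallest p, and the 5 genes most like Casp4; in the closing section, genes were chosen after their values were seen. Promoter windows are from RefSeq, GRCm38.p6. Python 3.11.15 and matplotlib 3.10.9 drew the figures.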

Additional observations from a re-analysis of the deposited data

How the results depend on the processing

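Casp4 passed in IgAN against WT under all 19 alternatives and in GQYS against IgAN under all but the fit without GQYS replicate 3. The number of members past the threshold stayed at 1 in these comparisons except with library quality weights, where it was 2 in each (Casp4 and Il1b, the latter tested only because its IgAN libraries reach the filter), and except that it ranged from 0 to 1 over the fits with 1 library left out in GQYS against IgAN. Quality weights also gave 5 related pathway genes in IgAN against WT (among them Nfkb1, Rela, Ticam1 and Cebpb, all 4 higher) and 2 in GQYS against IgAN (Nlrx1 higher, Stat3 lower) instead of 0. The count of all genes, 41 in IgAN against WT, was 21 without a filter, 11 with only the groups compared, 655 with quality weights and 14 (without WT replicate 2) to 65 (without WT replicate 1) with 1 library left out. The count of 23 in GQYS against IgAN was 15 at a pseudocount of 0.1, 13 without a filter, 43 with only the groups compared, 404 with quality weights, 63 without WT and IgAN replicate 1 together and 6 (without GQYS replicate 3) to 54 (without WT replicate 1) with 1 library left out. Of its calls 4 were higher and 19 lower, against 1 and 15 after quantile normalization, 210 and 194 with quality weights and 18 and 36 without WT replicate 1; in IgAN against WT 35 were higher and 6 lower, against 359 and 296 with quality weights. The count of 0 in GQYS against WT was 53 with quality weights and 0 to 1 with 1 library left out. The causes were not tested. With the replicate number as a block the count in IgAN against WT was 68, and no call of a member changed. Same-numbered libraries had correlations of deviations from -0.36 to 0.58, with 6 of 9 over 0.1, and differently numbered ones from -0.63 to 0.53. These overlapping ranges do not settle whether the numbers are pairs, and the main fit did not take them as pairs. Depth limits Nlrp3 and Aim2 most, with 9 to 56 reads per library, while Il1b, Casp1 and Casp4 go down to 24, 25 and 28 reads.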

Other observations

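Of the 51 tested related genes, 6 lay above both other groups in all IgAN libraries, 11.8% against 4.64% of all tested genes. Besides Stat3, Nfkb1, Rela and Cd14, the 6 included Ticam1, the adaptor TRIF of Tlr3 and Tlr4, at 6.64, 6.86 and 9.03 FPKM in WT, 9.61, 9.55 and 10.02 in IgAN, and 8.09, 8.09 and 7.95 in GQYS. Il1r1, the signalling receptor of interleukin-1, was at 1.25, 1.33 and 1.38 FPKM in WT, 2.70, 1.56 and 1.90 in IgAN, and 1.37, 1.46 and 1.37 in GQYS. Hmgb1, a chromatin protein that acts as an alarmin, lay below both other groups in IgAN, at 26.0 to 26.2 FPKM in WT, 20.4 to 25.1 in IgAN and 26.8 to 27.2 in GQYS. None of these passed the threshold in the limma fit of the report.

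Of the 42 related genes below the filter, Il36g, an epithelial cytokine of the IL-1 family, had, in the smallest whole numbers that fit the FPKM steps, 0, 0 and 0 reads in WT, 8, 24 and 6 in IgAN, and 1, 1 and 0 in GQYS. Il1r2, the decoy receptor of interleukin-1, had 0, 1 and 2 reads in WT, 14, 6 and 6 in IgAN, and 1, 4 and 0 in GQYS. Gsdme, a gasdermin cleaved by caspase-3, was lower in IgAN, at 0.505, 0.497 and 0.480 FPKM, against 0.548, 0.706 and 0.613 in WT and 0.568, 0.666 and 0.621 in GQYS. These genes were named after their values were seen, and at such depths the values are only a description.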
